A study of Mus musculus with 7 samples.

Results

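The cholinergic signalling genes are 9 of the 21911 protein-coding genes of the GENCODE vM21 mouse annotation: Ache, Chat, Slc18a3, Slc5a7, Chrm1, Chrm2, Chrm3, Chrm4, and Chrm5. They were chosen by name, and their data are the distinct ATAC-Seq peak intervals that overlap each gene body or the 20 kb on either side of it on GRCm38 (mm10). These windows form 8 separate stretches, since Chat and Slc18a3 share 1, and cover 0.0388% of the genome. They held 525 of the 1190565 peaks in 7 peak lists and 360 of the 834695 regions left after overlapping peaks of different libraries were merged. The libraries came from islet alpha (n = 2), beta (n = 3), and delta cells (n = 2) of mice that carried mIns1-H2b-mCherry and Rosa-LSL-YFP with either Sst-Cre or Gcg-Cre. Animals were pooled by sex, and the cells were sorted by FACS. An Ins1 promoter drives the red label of beta cells and the Cre lines mark delta or alpha cells by lineage, so a cell that once expressed Cre keeps its yellow label. A library is therefore a pool of animals and not an animal, and the labels say no more of the replicates than that they are biological.

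Acetylcholine is made from choline by choline acetyltransferase (Chat), loaded into vesicles by the vesicular transporter (Slc18a3), and cleaved outside the cell by acetylcholinesterase (Ache). The choline set free is taken up again by the high-affinity transporter (Slc5a7). Muscarinic receptors carry the signal into the cell, Chrm1, Chrm3, and Chrm5 through Gq and calcium, and Chrm2 and Chrm4 through Gi. In mouse islets parasympathetic nerves release acetylcholine, and Chrm3 is the receptor best known for raising insulin secretion from beta cells, while Chrm4 is known in delta cells.

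The lists differed in length and strength, which bears on every absent peak and every percentile below. They held 131151 and 111961 peaks in the alpha replicates, 518503, 91089, and 103935 in the beta replicates, and 158066 and 75860 in the delta replicates. In beta 1 4.996% of the peaks had a -log10 q of at least 2, against 29.8% to 54.9% in the other libraries. All 3 beta lists were deposited under file names that give another cell type, alpha for beta 1 and delta for beta 2 and beta 3, and the labels were used here. Beta cells were sorted together with alpha cells from mice with Gcg-Cre or together with delta cells from mice with Sst-Cre, so these names may give the mouse line, which the labels leave out. Beta 1 would then share its line, and possibly its animals, with the alpha libraries and beta 2 and beta 3 with the delta libraries. The names also place both alpha libraries and beta 1 on lane 6 and the others on lane 7, so lane, any such difference in line, and the contrast of alpha with delta cells cannot be told apart, and values within a lane are also values within a line named in this way. Marker genes followed the labels in part. Gcg had a peak at its transcription start site (TSS) in both alpha libraries and delta 2, and Rbp4 in the alpha and delta libraries, but Sst had one in beta 1, at percentile 95.5 of that list by -log10 p, and in both delta libraries, at percentiles 17.1 and 14.4. Of the 6 beta cell markers, Ins1, Mafa, and Nkx6-1 had TSS peaks in all 7 libraries and Slc2a2 in none, and no beta cell marker had one in 2 or more beta libraries while both alpha or both delta libraries lacked it. In bulk libraries such as these, fewer cells with open chromatin and less open chromatin per cell cannot be told apart, and a peak list gives no detection limit for a peak that is absent.

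Chrm3 and Chrm2 had a TSS peak in every library, while Chrm4 had none at the start that GENCODE gives. By a TSS peak is meant any peak no more than 1 kb from the annotated 5′ end, and its strength is given as its percentile by -log10 p within its own list, with ties at their mean rank. At least 2 replicates carried one for 4 members in alpha cells (Chat, Slc18a3, Chrm2, and Chrm3), 3 in beta cells (Slc18a3, Chrm2, and Chrm3), and 2 in delta cells (Chrm2 and Chrm3). Over all protein-coding genes the same call was made for 56.8%, 56.1%, and 54.1%. All 7 libraries had one for 41.5% of genes and none for 17.3%. Per library, 6 and 6 members had a TSS peak in alpha cells, 4, 3, and 3 in beta cells, and 5 and 2 in delta cells. The 2 alpha libraries were above all others, and the beta and delta libraries overlapped. A difference between the cell types was not detectable beyond the spread between libraries (exact permutation test without direction, p = 0.162 over 210 assignments, smallest possible p 0.00952). Without delta 1 or without delta 2 the exact permutation p was 0.0333 in either case. Within lane 6 the beta library had 2 members fewer than the mean of the alpha libraries, and within lane 7 the beta libraries had 0.5 fewer than the delta libraries. When a -log10 q of 2 or more was required, 3 and 3 members were left in alpha, 0, 1, and 2 in beta, and 2 and 2 in delta cells. No member had a TSS peak in both delta libraries but in no alpha library (0.543% of all genes) or no beta library (0.808%), or in 2 or more beta libraries but in no alpha library (2.38%).

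**Figure D1:**
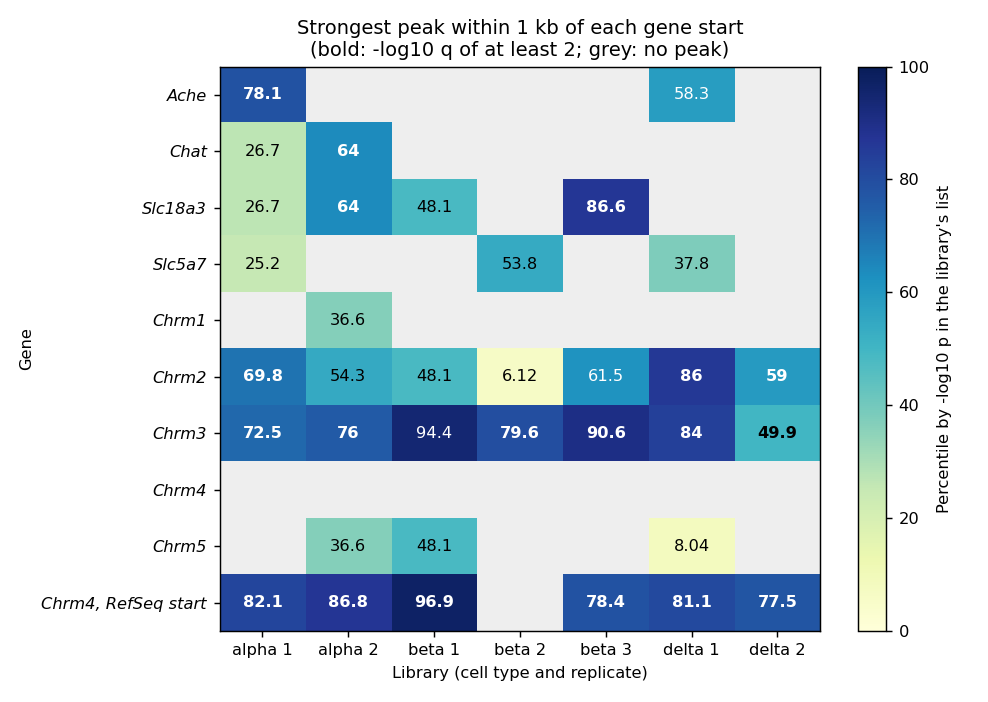
Percentile by -log10 p (0 to 100, colour and number) of the strongest peak within 1 kb of the start of each member (rows) in each library (columns), with grey where the list has no peak. Chrm2 and Chrm3 are filled in all 7 libraries, Chat in the 2 alpha libraries alone, and Chrm4 in 6 libraries once its RefSeq start (last row) is used.

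Chrm3, the muscarinic receptor that drives calcium release through Gq, is the longest member, with a body of 485.4 kb on the reverse strand of chr13:9875486-10360847. Its promoter region, chr13:10359570-10361244, was called in all 7 libraries. The fold enrichment of the strongest peak there was 4.44 and 5.19 in alpha, 3.52, 4.67, and 7.50 in beta, and 5.51 and 4.27 in delta cells. The 3 cell types overlapped, as they did by percentile, which ran from 49.9 in delta 2 to 94.4 in beta 1. A -log10 q of at least 2 was reached in 6 libraries, all but beta 1.

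The strongest peak of the Chrm3 window in every library, by fold enrichment and by percentile, was not at the promoter. It lay 248 kb inside the gene, in an intron, at chr13:10112648-10113260. Its fold enrichment was 11.3 and 16.7 in alpha, 7.59, 10.4, and 9.88 in beta, and 15.0 and 17.5 in delta cells, at a -log10 q above 2 in all 7 libraries. The 3 beta values were below all 4 others, which was not tested, with means of 13.99 ± 3.78 (SD, n = 2) in alpha, 9.29 ± 1.49 (SD, n = 3) in beta, and 16.3 ± 1.74 (SD, n = 2) in delta cells. Percentiles within the lists overlapped between the cell types, at 95.2 and 97.2 in alpha, 98.8, 96.5, and 93.5 in beta, and 97.9 and 97.9 in delta cells. Beta 1, the longest list, had the highest percentile and the lowest fold enrichment. The 200 bases around its strongest summit, chr13:10112846-10113045 of GRCm38 on the reverse strand, are shown because every cell type opened them. Capitals mark the only motif found, the E-box CAGATG read on the other strand.
Chrm3 intron, 248 kb: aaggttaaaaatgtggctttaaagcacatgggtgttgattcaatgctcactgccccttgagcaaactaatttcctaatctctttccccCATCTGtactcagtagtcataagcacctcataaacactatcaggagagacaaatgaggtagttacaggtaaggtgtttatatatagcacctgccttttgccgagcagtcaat

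Of the 177 merged regions in the Chrm3 window, 147 were called in 1 library, 82 of these in beta 1, and 30 in at least 2 libraries. Most of these 30 were intronic, at 23, with 5 promoter-proximal, within 3 kb of any annotated transcript start, and 2 exonic. Delta cells had 14 open regions, called in both replicates, alpha cells 9, and beta cells, with at least 2 of 3 replicates, 9, and 6 were open in all 3 cell types. A further 4 Chrm3 regions were called in 6 libraries each. They lay 478 kb, 454 kb, 290 kb, and 86.7 kb inside the gene, and those at 454 kb and 290 kb reached a -log10 q of at least 2 in all 6 libraries that had them.

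**Figure D2:**
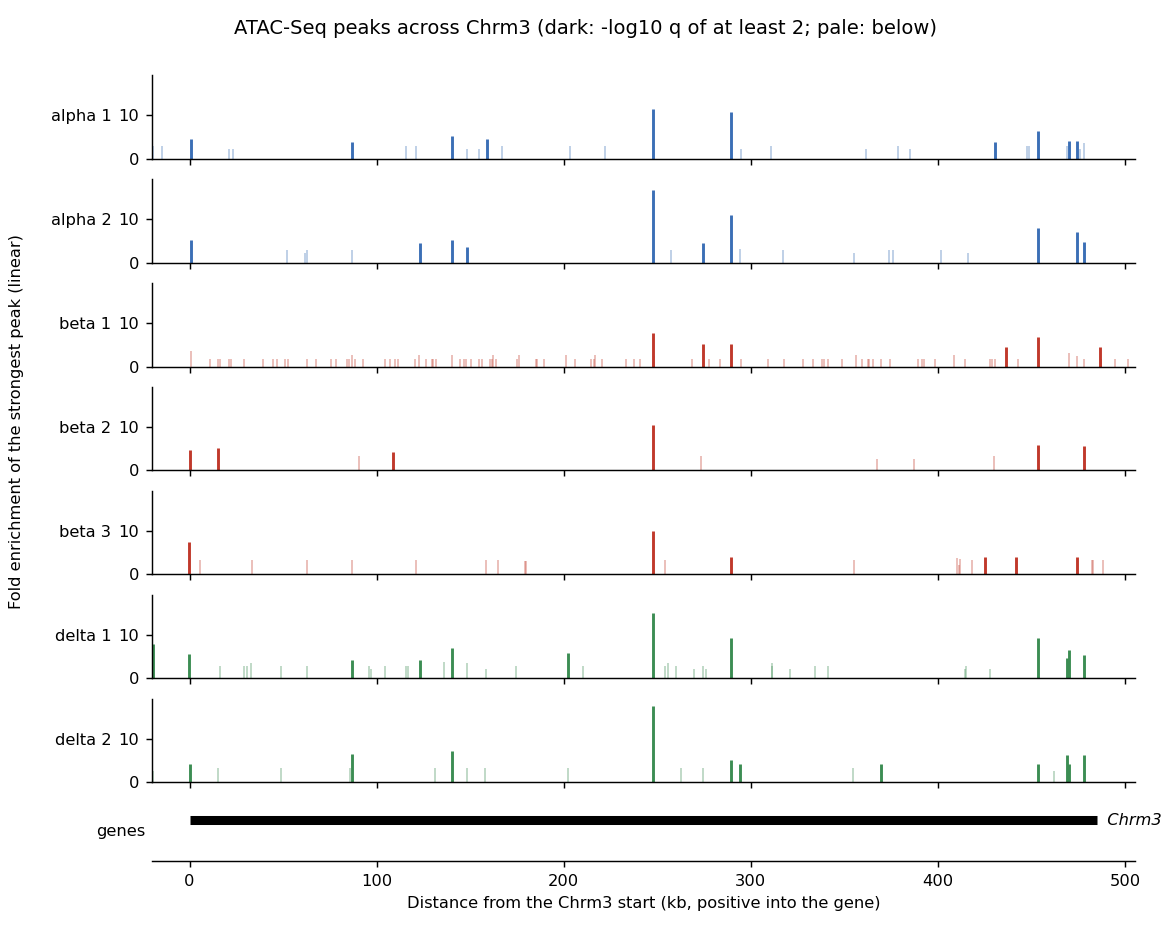
Fold enrichment (linear, vertical axis) of the strongest peak of each merged region along Chrm3 in the 7 libraries, against the distance from its start in kb. The peak 248 kb inside the gene stands in all 7 libraries, between 7.59 in beta 1 and 17.5 in delta 2, and beta 1 adds many pale peaks with a -log10 q below 2.

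A few intronic Chrm3 regions were called in some cell types only. Only the 2 delta libraries had a peak at chr13:10158219-10158498, 202 kb inside the gene, with a fold enrichment of 5.73 in delta 1 and 3.36 in delta 2. The same held at chr13:10311697-10312138, 48.9 kb inside, with 2.87 and 3.36, and neither replicate reached a -log10 q of 2 there. In the other direction, chr13:9886338-9886816, 474 kb inside, was called in both alpha libraries (3.95 and 6.98) and in beta 1 (2.46) and beta 3 (4.02), and in no delta library. It was chosen for display after its values were seen. The 200 bases around the strongest summits of these 3 regions, on the reverse strand, are shown to set delta-only introns beside 1 that delta cells lack. Capitals mark the forkhead letters TGTTTAC or their reverse complement, the site family of Foxa factors, which occurred in 3 of the 59 member regions of at least 2 libraries (5.08%) and in 6.70% of all 133698 such regions.
Chrm3 delta only, 202 kb, chr13:10158248-10158447: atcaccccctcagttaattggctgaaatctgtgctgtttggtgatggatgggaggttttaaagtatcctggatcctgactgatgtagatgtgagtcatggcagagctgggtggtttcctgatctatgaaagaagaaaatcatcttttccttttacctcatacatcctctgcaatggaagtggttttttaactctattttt
Chrm3 delta only, 48.9 kb, chr13:10311842-10312041: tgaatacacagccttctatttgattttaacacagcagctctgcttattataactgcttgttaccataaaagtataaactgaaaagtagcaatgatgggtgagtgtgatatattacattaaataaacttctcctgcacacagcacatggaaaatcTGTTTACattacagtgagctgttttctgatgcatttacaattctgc
Chrm3 not in delta, 474 kb, chr13:9886496-9886695: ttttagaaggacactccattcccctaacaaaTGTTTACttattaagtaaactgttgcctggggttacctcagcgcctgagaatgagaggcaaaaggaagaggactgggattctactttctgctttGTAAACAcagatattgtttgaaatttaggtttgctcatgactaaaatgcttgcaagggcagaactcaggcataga
The first of these has no match, the delta-only intron at 48.9 kb has 1, and the region absent from delta cells has 2.

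Chrm1 and Chrm5, the other receptors that act through Gq, had weak TSS peaks in few libraries. Chrm1, at chr19:8663789-8683587 on the forward strand, had one in alpha 2 alone, at percentile 36.6 with a -log10 q of 1.02. Its only region called in every replicate of 1 cell type and nowhere else lay in its coding exon, chr19:8677975-8678341, with a fold enrichment of 2.998 in alpha 1 and 2.20 in alpha 2 and a -log10 q of 1.13 and 0.182. Chrm5, at chr2:112479171-112480769 on the reverse strand, had TSS peaks in alpha 2, beta 1, and delta 1, with fold enrichments of 2.93, 1.80, and 2.15, and none reached a -log10 q of 2. The strongest region in its window, chr2:112492812-112493703, belongs to another gene, since it holds the start of Aven, and it was called in all 7 libraries with fold enrichments from 8.70 to 13.6. RefSeq places the 5′ end of the Chrm5 gene 55.6 kb further upstream, past that Aven start, and no library had a peak within 1 kb of it.

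Chrm2, which acts through Gi and opens GIRK potassium channels, lies at chr6:36388084-36528414 on the forward strand. Its TSS peak was at percentiles 69.8 and 54.3 in alpha, 48.1, 6.12, and 61.5 in beta, and 86.0 and 59.0 in delta cells. A -log10 q of at least 2 was reached in alpha 1, delta 1, and delta 2 and in no beta library, though beta 3 lay above delta 2 in percentile. By fold enrichment beta 3 lay below delta 2, at 3.47 against 4.48. Peaks at the start lay mainly in 2 neighbouring regions. The one over the start, chr6:36387771-36388431, was called in alpha 2, all 3 beta libraries, and delta 2, and the other, chr6:36388450-36388826 just inside the gene, in alpha 1, alpha 2, beta 1, and delta 1. The region over the start also holds a transcript start of 9330158H04Rik, and the other lies 91 bp from one. Deeper in the gene the calls were sparse, with 62 of the 67 regions of the window in a single library, 41 of them in beta 1.

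Chrm4, the other Gi-coupled receptor, showed a clear promoter peak once its start was placed. GENCODE holds its coding sequence alone, chr2:91927249-91928688 on the forward strand, and no library had a peak within 1 kb of that 5′ end. RefSeq places the start 5060 bp upstream, and there chr2:91921726-91922338 was called in 6 of 7 libraries, all but beta 2, each at a -log10 q of 2 or more. The GENCODE transcript start nearest to this region is one of Gm10805, 798 bp away. The fold enrichment was 5.75 and 7.89 in alpha, 4.69 and 4.86 in beta 1 and beta 3, and 5.15 and 6.82 in delta cells. By fold enrichment the 2 beta values were below the others, and beta 2 had no peak. By percentile the cell types overlapped, at 82.1 and 86.8 in alpha, 96.9 and 78.4 in beta 1 and beta 3, and 81.1 and 77.5 in delta cells. Beta 1 was the highest of the 6 by percentile and the lowest by fold enrichment. The 250 bases before the RefSeq start, chr2:91921939-91922188 on the forward strand of GRCm38.p6, are shown because each of these 6 calls was strong. Capitals mark the GC box GGGCGG, whose last 2 matches overlap.
Chrm4 promoter: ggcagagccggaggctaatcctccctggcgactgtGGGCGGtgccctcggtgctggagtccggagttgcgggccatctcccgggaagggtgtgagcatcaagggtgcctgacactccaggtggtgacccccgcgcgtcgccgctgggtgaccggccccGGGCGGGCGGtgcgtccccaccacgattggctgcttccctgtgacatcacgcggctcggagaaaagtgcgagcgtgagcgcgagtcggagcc
The RefSeq promoter of 300 bases, 250 before and 50 after the start, had a GC content of 70.7% and 30 CpG dinucleotides, against medians of 52.7% and 7 over 32851 RefSeq promoters.

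Around Chrm4 both delta libraries had regions that the others lacked. One lay at chr2:91932851-91933299, 5.83 kb past the GENCODE start, with a fold enrichment of 3.85 in delta 1 and 2.11 in delta 2. Another lay at chr2:91944232-91944482, 17.1 kb past it, with 4.35 and 4.17 and a -log10 q of at least 2 in both. Mdk is the nearest coding gene to the first and Gm9821 to the second, so neither stands closest to Chrm4. The Chrm4 window, which also reaches Ambra1, Dgkz, Gm9821, and Mdk, had 5 open regions in delta cells, 2 in alpha cells, and 2 in beta cells. Of the open regions, only that over the RefSeq start was nearest to Chrm4 among coding genes, and it was open in each cell type. The region called in all 7 libraries, chr2:91947377-91948400, lies beyond both delta-only regions, nearest to Gm9821.

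Chat, which makes acetylcholine, and Slc18a3, which loads it into vesicles, share 1 locus. Slc18a3, at chr14:32462438-32464850, sits inside Chat, at chr14:32408203-32465989, both on the reverse strand. The region over the Slc18a3 start, chr14:32464610-32465152, was called in both alpha libraries and in beta 1 and beta 3, but in neither delta library. Its fold enrichment was 2.99 and 3.75 in alpha, 1.80 in beta 1, and 6.43 in beta 3, and beta 2 had no peak. The -log10 q was 2.03 in alpha 2 and 6.35 in beta 3, and below 2 in alpha 1 and beta 1. The peaks overlapped in a chain, beta 1 with beta 3, beta 3 with alpha 1, and alpha 1 with alpha 2, so the alpha 2 peak overlapped neither beta peak.

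Chat had a TSS peak in the 2 alpha libraries alone, so it counted as called in alpha and not in beta cells, as 1.29% of all genes did. That call rests on the edge of the TSS window. The peak is the one at Slc18a3, which ended 964 and 837 bp from the Chat start in alpha 1 and alpha 2, and 1180 and 1077 bp from it in beta 1 and beta 3. With a window of 3 kb those beta libraries were counted too, and the delta libraries were not. Chat and Slc18a3 were thereby 2 members called in alpha and not in delta cells (1.2% of all genes), and Slc18a3 was 1 called in beta and not in delta cells (2.6%). The TSS percentiles of the 2 genes showed no difference between the cell types that passed the test (exact permutation test without direction, p = 0.0952 for Chat and 0.457 for Slc18a3). Both adjusted p values over all genes were 1 (Benjamini-Hochberg), and the few libraries left little room for a lower value. By this measure no member had an unadjusted p under 0.05, and 2.19% of all genes did.
Slc18a3 promoter, chr14:32464851-32465100, reverse strand: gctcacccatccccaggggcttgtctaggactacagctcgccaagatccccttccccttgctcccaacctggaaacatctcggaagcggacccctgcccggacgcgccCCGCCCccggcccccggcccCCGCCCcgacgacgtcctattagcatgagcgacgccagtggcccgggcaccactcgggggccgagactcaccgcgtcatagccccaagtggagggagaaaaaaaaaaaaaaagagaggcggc
These 250 bases before the RefSeq start are shown because alpha and delta cells differ in calls here, and capitals mark 2 GC boxes read on the other strand.

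In the Chat window delta cells had 3 open regions, away from the start. The intronic region chr14:32439632-32440099, 26.1 kb inside the gene, was called in 5 libraries, with a fold enrichment of 5.33 and 6.96 in alpha, 5.08 in beta 1, and 5.71 and 7.58 in delta cells. All 5 calls had a -log10 q of at least 2, and beta 2 and beta 3 had no peak there. It is named after its values were seen. Its summit bases, chr14:32439785-32439984 on the reverse strand, carry in capitals both E-box forms, CAGATG and CAGCTG, and the MAF letters TGCTGA on the other strand.
Chat intron, 26.1 kb: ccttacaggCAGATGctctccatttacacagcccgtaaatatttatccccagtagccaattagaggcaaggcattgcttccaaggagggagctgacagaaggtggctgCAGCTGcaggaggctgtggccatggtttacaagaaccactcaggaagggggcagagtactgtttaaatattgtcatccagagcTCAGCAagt
The region called in all 7 libraries, chr14:32388205-32388712, holds the start of the neighbouring gene 1700024G13Rik, at the end of the window.

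**Figure D3:**
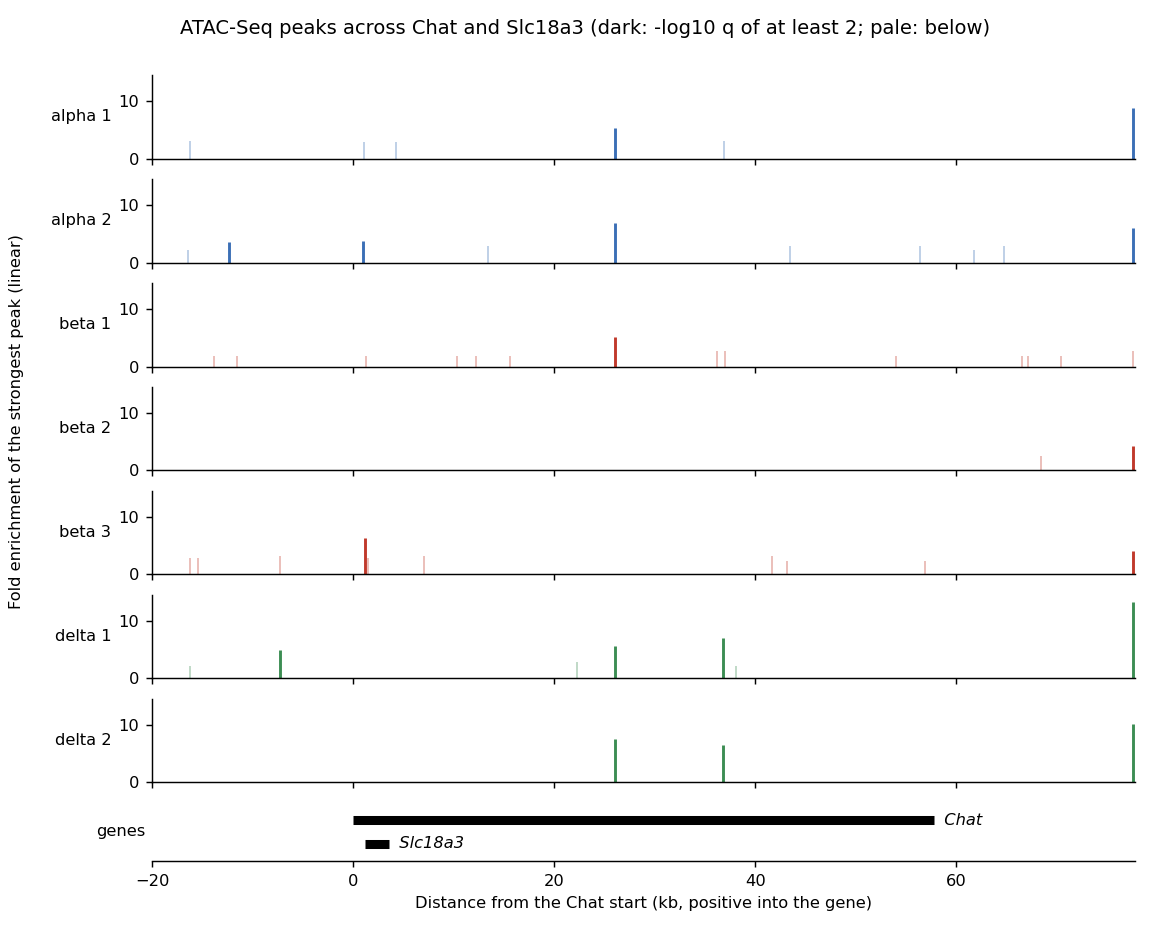
Fold enrichment (linear, vertical axis) of the strongest peak of each merged region along Chat and Slc18a3 in the 7 libraries, against the distance from the Chat start in kb. The peaks near 1 kb are in alpha and beta libraries and in no delta library, and the intronic peak at 26.1 kb is in 5 libraries, with a fold enrichment from 5.08 to 7.58.

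Slc5a7, which returns choline to cholinergic terminals, had weak calls alone. Its window around chr17:54273590-54299034, on the reverse strand, held 19 regions, of which 18 were in 1 library. The exception, chr17:54298309-54298810, holds a transcript start and was called in alpha 1, beta 2, and delta 1, with fold enrichments of 2.94, 3.39, and 2.87 and a -log10 q below 2 in each. No peak in its whole window reached a -log10 q of 2 in any of the 7 libraries.

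Other cell types were looked for by their markers. Of the markers of autonomic neurons, 4 are given here. Hand2 had a TSS peak at percentiles 23.9 and 18.9 in alpha 1 and alpha 2, 90.9 in beta 1, and 73.0 in delta 1, and 1 of these 4 calls reached a -log10 q of 2. Phox2a was called in alpha 2 and delta 1, Th in beta 1, and Dbh in alpha 2, all below a -log10 q of 2, and beta 2, beta 3, and delta 2 had a TSS peak at none of these 4 genes. Among markers of Schwann cells, the defining gene Sox10 had no TSS peak in any library, Cdh19 had one in beta 1 alone, Foxd3 in 6 libraries, and Erbb3 in all 7. Of 4 acinar markers at most 1 was called in a library. Ptf1a had a TSS peak in both alpha libraries and in no other, the libraries that called Chat, at percentiles 0.982 and 8.94 and a -log10 q below 2. Ctrb1 had one in beta 1, at percentile 48.1, and Cpa1 and Cela1 had none. The part of such cells in the calls at Chat and Slc18a3 was not tested.

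Ache, the esterase that ends the signal, lies at chr5:137287519-137294466 on the forward strand. It had a TSS peak in alpha 1, at percentile 78.1 with a fold enrichment of 5.13, and in delta 1, at percentile 58.3 with 3.38, and in no beta library. In the other 5 libraries a peak stood further upstream, in chr5:137285189-137285408, 2.22 kb before the start, with fold enrichments of 5.23 in alpha 2, 2.70, 4.17, and 2.41 in the beta libraries, and 3.13 in delta 2. No library had both. Over the 3′ end of Ache, chr5:137294021-137294874 holds the start of Ufsp1 and was called in all libraries but beta 1, with fold enrichments from 3.39 in beta 2 to 10.5 in delta 1. It was stronger than the upstream peak in alpha 2, beta 3, and delta 2, and weaker in beta 2, by fold enrichment and by percentile. This region, too, was named after its values were seen.

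Counted over its whole window, Ache was the 1 member with an unadjusted p under 0.05. It had 4.57 and 4.47 peaks per 100000 peaks of the list in alpha cells, 1.16, 2.20, and 2.89 in beta cells, and 3.16 and 3.95 in delta cells. The 3 beta libraries were below all others, and the means were 4.52 ± 0.0771 (SD, n = 2), 2.08 ± 0.870 (SD, n = 3), and 3.56 ± 0.560 (SD, n = 2). The exact permutation test without direction gave p = 0.0286, a value below 0.05 was reached by 4.42% of all protein-coding genes, and the adjusted p was 1. No gene of the 21911 had an adjusted p under 0.05, of 968 with an unadjusted p under 0.05. An adjusted p under 0.05 would have needed many more genes than these 968 at the smallest possible p, 0.00952. The window holds the starts of Srrt, Trip6, and Ufsp1 as well, so these peaks are not all those of Ache. Where a -log10 q of 2 or more was required, the means were 7.92, 1.92, and 5.59 and the exact permutation p 0.0190. Among the 50000 strongest peaks of each list they were 8, 2, and 5, with an exact permutation p of 0.00952. Neither p was adjusted over genes. Without any 1 beta library the exact permutation p was 0.0667, the smallest that 90 assignments to equal groups allow. Without any 1 alpha or delta library, which left that cell type with 1, it was no longer under 0.05, though this was possible there. The beta libraries stayed below all others whichever library was left out.

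Chrm3 came next, with 23.6 and 20.5 peaks per 100000 in alpha, 19.7, 13.2, and 24.1 in beta, and 27.8 and 33.0 in delta cells. Both delta libraries were above all others, and alpha and beta cells overlapped. The exact permutation test over the 3 cell types did not reach 0.05 (p = 0.0762, without direction, adjusted p 1). Among the 50000 strongest peaks of each list the means were 19.0, 32.7, and 35.0, and delta cells were no longer above all others. The other 7 members had p values from 0.133 for Chrm4 to 0.886 for Slc5a7. Per length, with lists scaled to equal size, Chrm4 had 14.1 peaks per 100 kb of its window, Ache 11.6, and Slc5a7 4.22, against a median of 8.05 over all coding genes. The window of Chrm3, its body of 485.4 kb with the flanks, held 7.49 per 100 kb, below that median.

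**Figure D4:**
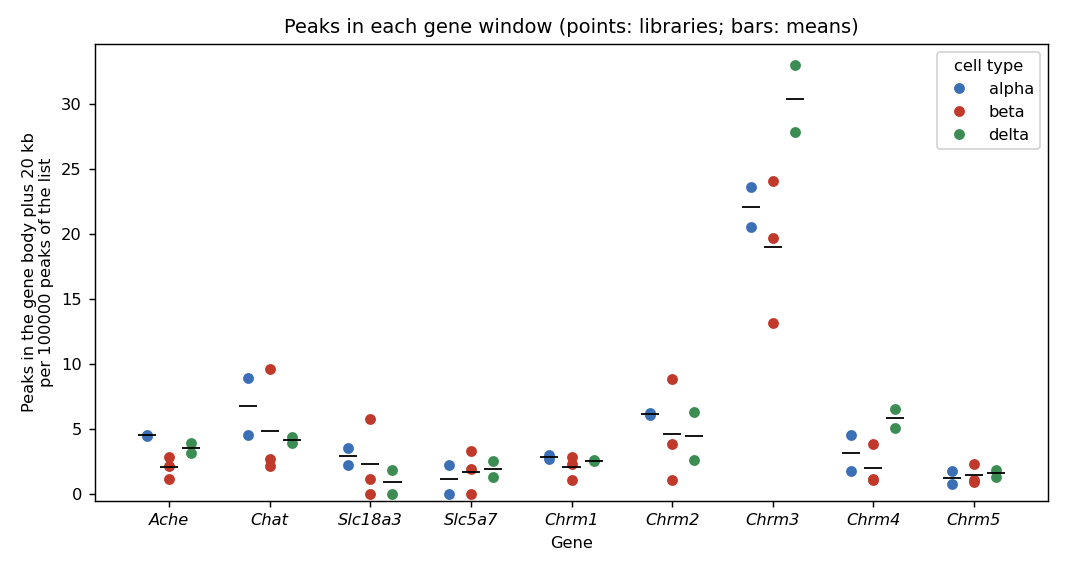
Peaks in the gene body plus 20 kb on either side, per 100000 peaks of the list (linear vertical axis), for the 9 members, with a point for each library and a bar at the mean of each cell type. Delta cells are highest at Chrm3, at 27.8 and 33.0, the 3 beta libraries are lowest at Ache, and the cell types overlap at Chat, Slc18a3, and Slc5a7.

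Over all windows, the members held 0.0496% and 0.0464% of the peaks in alpha cells, 0.0401%, 0.0253%, and 0.0481% in beta cells, and 0.0538% and 0.0554% in delta cells. Delta libraries were highest and beta 2 lowest, and beta 3 lay between the alpha libraries. The exact permutation test without direction gave p = 0.143 over 210 assignments. Within lane 6 beta minus the mean of the others was -0.00789 percentage points, and within lane 7 -0.0179 points, with 3 and 4 libraries that cannot reach p under 0.05.

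Of the 360 merged regions, 301 (83.6%) were called in 1 library, 169 of them in beta 1, and 59 in at least 2. Of these 59, 24 were promoter-proximal, 4 exonic, and 31 intronic, and for 19 no library reached a -log10 q of 2. Alpha cells had 19 open regions, beta cells 18, and delta cells 25, that is, regions called in at least 2 replicates. Over all 133698 regions of at least 2 libraries the shares were 34%, 42.1%, and 33.6%. All 3 cell types shared 11, and 5 were called in all 7 libraries, where 13.3% of all regions were. Only 2 of these 5 lie at a member, the promoter and the intron of Chrm3, and the other 3 lie at or nearest to Aven, 1700024G13Rik, and Gm9821.

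Regions with calls in 2 or more replicates of a cell type and in no replicate of another were counted as selective. There were 8 called in delta and not in beta cells, against 4.85% of all regions, and 2 in the reverse direction, against 13.2%. Delta over alpha numbered 5 and alpha over delta 3, with 5.13% and 5.38% over all regions. Alpha over beta numbered 2 and beta over alpha 1, with 5.41% and 14.8%. With flanks of 50 kb, delta over beta numbered 10 and beta over delta 6, while delta over alpha numbered 6 and alpha over delta 7. The 8 delta over beta regions were 5 in the Chrm3 window and 3 in the Chrm4 window. Those in the Chrm4 window were nearest to the coding genes Mdk or Gm9821, and none to Chrm4. Both replicates of delta cells and no other library called 4 regions, the 2 in Chrm3 and the 2 in the Chrm4 window given above. Both replicates of alpha cells and no other library called 1, in Chrm1. The shares over all regions were 2.06% for delta and 2.42% for alpha cells. No region was called in all 3 beta libraries and nowhere else (0.592% of all regions). The list of beta 1 takes part in these counts, and without it delta over beta numbered 14 regions, beta over delta 0, alpha over beta 6, and open beta regions 8. Without beta 3 the open beta regions numbered 11.

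The motifs searched in the 8 member promoters of the RefSeq table (all but Chrm1) and in 300 bases around the summits of the 59 regions were short and were read on both strands. CAGCTG reads the same on both, and overlapping matches were counted apart. The GC box was in 4 of 8 member promoters, those of Ache, Chrm2, Chrm4, and Slc18a3, and in 35.7% of all RefSeq promoters. It was in 18.6% of the 59 regions and in 13.7% of all regions of at least 2 libraries. The E-box CAGATG was in 25.4% and 24.96%, CAGCTG in 15.3% and 18.6%, the MAF letters TGCTGA in 27.1% and 25.4%, and the homeobox letters TAATTA in 3.39% and 8.19%. Neither part searched of RE1, the element that the neuronal silencer REST binds (TTCAGCACC and GGACAGCGC), was in any member promoter or region, and they occurred in 0.371% and 0.405% of all RefSeq promoters. These shares are descriptions of the letters in these windows. Promoters of the members ranged in GC content from 39.0% in Chrm5, whose promoter in the table lies beside the GENCODE start and not at the upstream 5′ end, to 74.0% in Ache.

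The coding genes most like each member were sought by Pearson's r between TSS percentiles over the 7 libraries, which share the depth of each list, so r is given as a description. Closest to Chrm3 were Pcolce2 (r = 0.993), Galnt10 (0.991), and Pon2 (0.990), and closest to Chrm2 were Hcn3 (0.976), Rpl29, and Mfap1b (both 0.967). For Slc18a3 they were Daam2 (0.961), Muc3 (0.958), and Draxin (0.957), and for Chat Tmem91 (0.999), Cers1 (0.998), and Thpo (0.996). Members with few calls matched many genes by the pattern of absence alone. Examples are Glra2, Notum, and Olfr693 for Ache (each 0.999), Dlk2 and Sprr2e for Slc5a7 (0.989 and 0.974), and Cpne7, Klk9, and Mmp13 for Chrm5 (1, 1, and 0.995). For Chrm1, with 1 library, r was 1 for 1700012A03Rik, 1700018B08Rik, and 2210017I01Rik.

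Outside the nicotinic receptors, most of the pathway genes listed had TSS peaks in each cell type. The shares over all coding genes called in 2 or more replicates were 56.8%, 56.1%, and 54.1% in alpha, beta, and delta cells, with 17.3% in no library. Of 16 nicotinic receptor subunits, the ion channels opened by acetylcholine, 4 were called in 2 or more replicates of alpha, 3 of beta, and 2 of delta cells, and 6 in no library. Chrna7 and Chrnb1 were the 2 called in all 7, Chrna7 between percentiles 97.7 and 99.7. Chrna5 was called in both alpha libraries, beta 1, beta 3, and delta 2, and in 4 of them with a -log10 q of at least 2.

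Of 11 genes for choline handling and esterase partners, 10, 9, and 7 were called in 2 or more replicates of alpha, beta, and delta cells. Among them the choline transporter Slc44a1 ran from percentile 94.8 to 99.7 and the choline kinase Chka from 81.8 to 98.8, in contrast to Slc5a7, which had 3 weak calls. Bche, the other cholinesterase, was called in all 7 libraries, while Colq, the collagen tail that anchors Ache, was called in none. Of 13 genes of the Gq arm below Chrm3, 11 were called in at least 2 replicates of every cell type, and Plcb2 and Plcb3 in no library. Of 18 genes of the Gi arm below Chrm2 and Chrm4, 15, 16, and 16 were. Kcnj3, a GIRK channel subunit, was called in all 7 libraries, from percentile 79.6 to 96.9, and Kcnj9 in none. No gene of these 4 lists was selective for a cell type over another by that rule. The lists were chosen with earlier results of these data known.

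**Figure D5:**
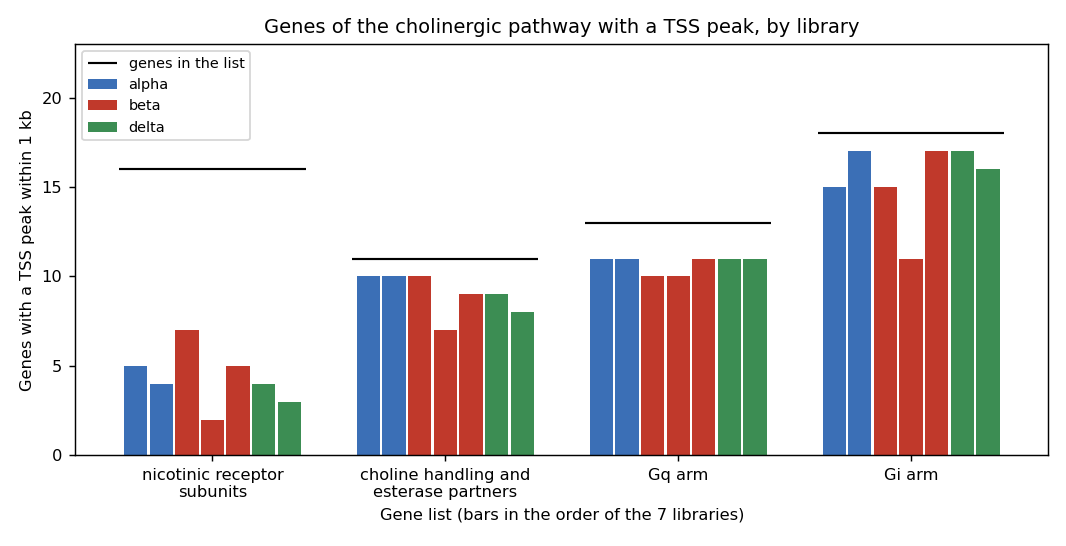
Number of genes with a TSS peak within 1 kb (vertical axis, from 0) in each of the 7 libraries for 4 lists of pathway genes, with a black line at the size of the list. Between 2 and 7 of 16 nicotinic receptor subunits have a peak, against 10 or 11 of 13 genes of the Gq arm.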

How the data were processed

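ATAC-Seq peak lists of 7 libraries were analysed, and groups and replicates were taken from the labels. Per the labels and methods, the authors made them from single-end reads through Trimmomatic, Bowtie2 (mm10), and Picard, and ran MACS2 separately for every library, with versions not given in the sources used here. The deposited columns hold the score, the fold enrichment at the summit as a ratio to the local background of that library, and the -log10 p and -log10 q values that MACS2 gave the authors, and the deposited summit offsets. No counts of reads per region were analysed, so depth entered here only through the lists, and no count test was run. The paper gives read depth per library, which was not used here. By its quality table, the beta libraries it kept had fewer unique mapped reads than both alpha libraries, and beta and delta libraries overlapped.

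Repeated intervals of a list were counted once, with the values of the row of highest -log10 p. Peaks of different libraries that shared 1 bp or more formed 1 region, which was checked against bedtools 2.31.1, and the steps were tested on simulated lists. Gene bodies came from GENCODE vM21 and promoter sequences from RefSeq (GRCm38.p6), which held 8 of the 9 members. Per gene, peaks per 100000 of a list and TSS percentiles were tested over all 21911 coding genes by exact permutation of the libraries, with Benjamini-Hochberg adjustment. All members were named, with regions called in all 7 libraries, holding a start, or called in every replicate of 1 cell type and nowhere else. Members, lists, motifs, and rules were chosen with earlier results of these data known. Libraries were not treated as paired by replicate number in the main tests. Correlations of deviations between libraries of the same number ran from -0.0520 to 0.146. Libraries of different numbers were not compared in this way, so these values cannot exclude a pairing. Alternatives were the 50000 strongest peaks, a minimum -log10 q of 2, flanks of 5 kb and 50 kb, coverage of at least 0.5 of a region, any transcript start, a wider TSS window (3 kb), each library left out, and a replicate block. Some genes of the marker lists and of the likeness search are not reported here. RefSeq starts and lanes were added after the data were seen. Python 3.11.15, numpy 2.4.6, pandas 2.3.3, matplotlib 3.10.9, and samtools 1.23.1 were used.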

Additional observations from a re-analysis of the deposited data

How the results depend on the processing

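The share of a list in the member windows, as beta minus the mean of the other libraries, was -0.0135 percentage points. It was 0.00233, the other direction, among the 50000 strongest peaks of each list (exact permutation p 0.486), ran from -0.0186 to -0.00718 with 1 library left out, and kept its sign under the other alternatives. The members with a TSS peak per library, as the same difference, were -1.42. Leaving out 1 library gave -2.17 to -0.667. With all libraries kept, no alternative brought the exact permutation p under 0.05, which the replicate block could not do in any case. Leaving out a beta library could not do so either. The replicate block gave exact permutation p values of 0.278 for the share and 0.222 for the members. It left 0 members with an unadjusted p under 0.05 (from 1, Ache), as did leaving out any 1 beta library. Neither could give a p under 0.05, with 36 assignments in the block and 90 without a beta library. These counts of 0 were therefore fixed in advance and say nothing of Ache. Without any 1 alpha or delta library, where a p under 0.05 was possible, Ache did not keep one. Those runs left a cell type with 1 library. For the TSS percentile the count was 0 to 1 with 1 library left out, and the 1 arose without delta 1.

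Open regions numbered 19, 18, and 25 in alpha, beta, and delta cells. Open beta regions numbered 8 with a -log10 q of at least 2, 10 among the 50000 strongest peaks, 10 with coverage of at least 0.5 of a region, and 8 to 19 with 1 library left out, lowest without beta 1. Selective regions between alpha and beta cells (3) numbered 1 among the strongest peaks, 6 with coverage, and 2 to 6 with 1 library left out. Those between alpha and delta cells (8) numbered 5 at that minimum -log10 q, and those between beta and delta cells (10) 3 among the strongest peaks and 8 to 14 with 1 library left out. With flanks of 50 kb, which take in more genes, open regions numbered 36, 35, and 38, and selective ones 10, 13, and 16. A cell type left with 1 library could not be called, since a call needs 2 replicates. Apart from the flanks, the causes were not tested. Precision is limited by 2 or 3 libraries per cell type, and by lists that hold no reads where no peak was called.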
